A study of Mus musculus with 24 samples.

Results

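The genes described here are 6 methyltransferase genes expressed in muscle, Mettl21e, Mettl21c, Mettl21a, Smyd1, Smyd2 and Inmt, together with Mss51, which encodes a muscle protein tied to mitochondria. They are 7 of 19937 genes with a probe set of their own on the array. The set was drawn up by symbol around Mettl21e, because Mettl21e had the largest rise of all tested genes in untreated muscle without myostatin. That comparison is therefore given below as a description, with no test. Mss51 and Inmt were already known as large falls under overload, so their falls, and those of Mettl21e, are also described without a test. All 7 genes have 1 probe set each, and all 7 passed the filter on dim genes, which kept 14499 genes.

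RNA came from the plantaris, a fast ankle extensor and toe flexor of the mouse hindlimb, at an age of 3 months. The 4 groups, each of 6 biological replicates with 1 array per replicate, were untreated wildtype, overloaded wildtype, untreated Mstn-/- and overloaded Mstn-/- mice. Mstn-/- mice are myostatin knock outs; myostatin is a secreted ligand of the TGF-beta family and holds back muscle growth. Overload was made by surgical removal of the soleus and most of the gastrocnemius in both legs under pentobarbitone, and control mice had no operation, so load and surgery differ together. The sources used here do not give the duration of overload, the sex of the mice or their strain background. Array medians lay between 139 and 147 intensity units. The mean correlation of an array with the others of its group was 0.978 to 0.994, with the lowest value on the array of overloaded wildtype replicate 3. The transcript of Mstn was 2.51-fold lower in Mstn-/- than in wildtype muscle without overload (limma adjusted p = 2.7e-08), with no overlap. With overload it was low in both genotypes and did not separate them (log2 -0.15, adjusted p = 0.39), and whether its probes lie in the disrupted part of the gene is not known here. Defining transcripts of muscle fibres were high in every group, and all 6 of them (Acta1, Ckm, Des, Ttn, Neb and Mb) were above the filter level.

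Methyltransferases move a methyl group from S-adenosylmethionine (SAM) onto a protein, a nucleic acid or a small molecule. METTL21 proteins methylate lysines, often on chaperones. METTL21A acts on the Hsp70 family, METTL21C is muscle-restricted and has been placed in slow fibres, and METTL21E is muscle-restricted in mice while its human counterpart is a pseudogene. SMYD1 and SMYD2 carry a SET domain split by a MYND zinc finger. SMYD1 is needed for the assembly of myofibrils, and SMYD2 methylates Hsp90 in the cytoplasm and is tied to the stability of titin. MSS51 shares the MYND finger, is named after a yeast activator of cytochrome c oxidase translation, and restrains oxidative metabolism in mouse muscle. INMT methylates indolethylamines such as tryptamine, and thioethers.

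RefSeq promoter sequence (build GRCm38.p6) was held for 5 of the 7 genes. Those of Mss51 and Inmt, which had the largest falls under overload in wildtype muscle, are shown beside that of Smyd1, the gene with the smallest fall, as the 250 bases before the transcript start, 5′ to 3′. Capitals mark matches, on either strand, to an E-box (CANNTG), a MEF2-like site (CTA and TAG with any 4 bases between), a SMAD box (CAGAC) or a TATA box (TATAAA).
Mss51, chr14:20496902-20497151, minus strand: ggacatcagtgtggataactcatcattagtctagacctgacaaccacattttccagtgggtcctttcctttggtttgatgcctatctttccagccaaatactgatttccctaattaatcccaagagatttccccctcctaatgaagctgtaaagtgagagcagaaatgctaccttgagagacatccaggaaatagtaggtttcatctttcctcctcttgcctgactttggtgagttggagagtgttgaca
Inmt, chr6:55174991-55175240, minus strand: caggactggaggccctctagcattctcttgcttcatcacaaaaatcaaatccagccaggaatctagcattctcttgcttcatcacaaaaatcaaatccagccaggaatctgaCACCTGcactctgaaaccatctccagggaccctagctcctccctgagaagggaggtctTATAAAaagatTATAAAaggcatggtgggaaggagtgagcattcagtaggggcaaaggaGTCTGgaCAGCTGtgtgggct
Smyd1, chr6:71262282-71262531, minus strand: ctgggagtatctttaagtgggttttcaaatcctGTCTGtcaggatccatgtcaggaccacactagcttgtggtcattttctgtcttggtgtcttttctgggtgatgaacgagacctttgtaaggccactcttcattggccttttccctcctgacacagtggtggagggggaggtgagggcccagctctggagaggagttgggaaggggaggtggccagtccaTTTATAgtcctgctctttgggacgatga
The Mss51 window held 0 matches to any of these letters. The Inmt window held 2 E-boxes, 1 SMAD box and 2 TATA boxes, and the Smyd1 window held 1 SMAD box and 1 TATA box. Of 32851 promoters of that length, 66.2% hold an E-box, 3.2% a MEF2-like site, 42.2% a SMAD box and 12.4% a TATA box. The letters of the motifs do not overlap in these windows.

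Mettl21e showed the widest span of the METTL21 genes. Values here and below are log2 intensities, and differences are log2 differences or folds. In untreated wildtype muscle the 6 arrays lay at 6.98 (lowest), 7.19 (median) and 7.30 (highest). The untreated Mstn-/- arrays lay at 9.36, 10.06 and 10.49. These groups did not overlap, and the means were 7.15 ± 0.13 (SD, n = 6) and 10.01 ± 0.45. This 7.22-fold difference (log2 2.85 ± 0.20, SE) is the value that chose the gene. The next gene in rank, just outside the rule, was Odf3l2, with a log2 difference of 2.23.

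Under overload Mettl21e was low in wildtype muscle, at 5.01 (lowest), 5.12 (median) and 5.54 (highest). All 6 of those arrays were below the filter level of 6.63, so folds against this group are of uncertain size. In overloaded Mstn-/- muscle the arrays lay at 6.93, 7.59 and 8.70, with replicate 6 highest, and all 6 were above the filter level. These 2 overloaded groups took no part in choosing the gene. They did not overlap, and Mettl21e was higher in Mstn-/- muscle by 2.47 ± 0.20 (SE) on the log2 scale (limma adjusted p = 2.7e-09, n = 6 per group), again rank 1 of the 14499 genes. Against its untreated group the gene was lower under overload by 1.98 (log2) in wildtype and by 2.36 in Mstn-/- muscle, with no overlap in either genotype. Overloaded Mstn-/- muscle thus overlapped untreated wildtype muscle in its level of Mettl21e, and the order of means from low to high was overloaded wildtype, untreated wildtype, overloaded Mstn-/- and untreated Mstn-/-.

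**Figure D1:**
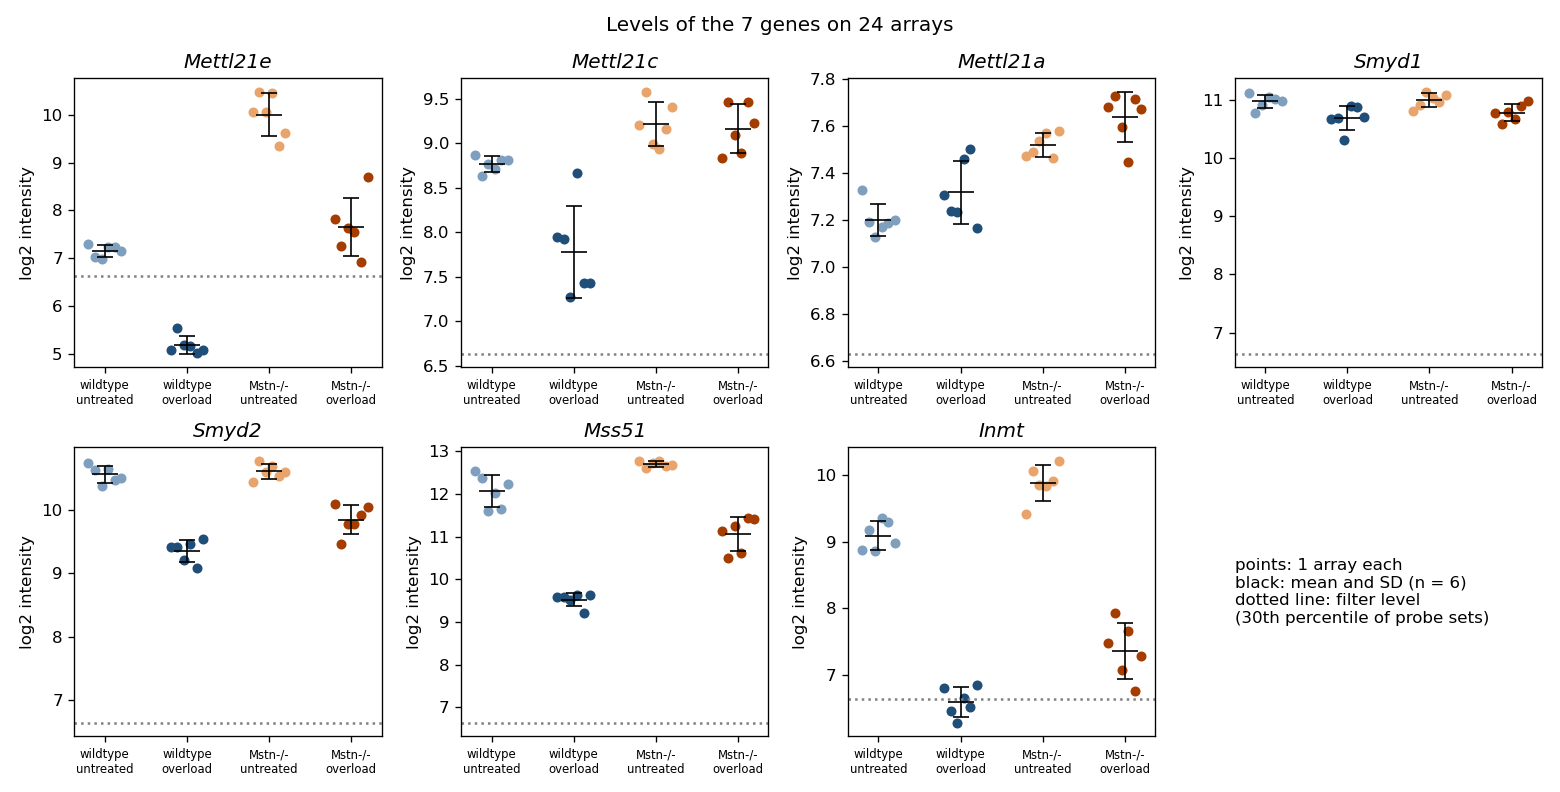
Log2 intensity (vertical axis, with a separate range in each panel) of the 7 genes on each of 24 arrays, by group. Points are arrays, black marks are mean and SD (n = 6), and the dotted line is the filter level of 6.63. All 6 overloaded wildtype arrays are below that line for Mettl21e, and Mss51, Smyd2, Inmt and Mettl21e are lower in both overloaded groups than in the untreated group of the same genotype.

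Mettl21c, the relative that lies near Mettl21e on the chromosome, followed another course. Its arrays lay at 8.63 (lowest), 8.79 (median) and 8.87 (highest) in untreated wildtype, and at 7.27, 7.68 and 8.66 in overloaded wildtype muscle. The untreated wildtype arrays were close together, and of the overloaded ones only replicate 4 reached their range. Mettl21c fell by 0.99 ± 0.17 (log2, SE) under overload in wildtype (limma adjusted p = 8.9e-06). The SD was 0.09 over the untreated and 0.52 over the overloaded wildtype arrays. The SE comes from a fit that takes the spread as equal in all 4 groups. The Mstn-/- arrays lay at 8.93, 9.19 and 9.58 without overload and at 8.84, 9.16 and 9.47 with it, and these ranges overlapped almost whole. The log2 difference was -0.05, with a 95% confidence interval of -0.39 to 0.29 (limma adjusted p = 0.81).

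The overload response of Mettl21c differed between genotypes by 0.94 ± 0.23 (log2, SE; limma adjusted p = 0.0064). Among overloaded muscles it was 2.62-fold higher in Mstn-/- than in wildtype mice (log2 1.39 ± 0.17, SE; limma adjusted p = 5.1e-07), with no overlap, rank 14 among rises. Untreated Mstn-/- muscle was higher than untreated wildtype muscle by 0.45, a description, again with no overlap. In rising order the means were overloaded wildtype, untreated wildtype, overloaded Mstn-/- and untreated Mstn-/-, and the last 2 did not differ beyond their spread.

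Mettl21a, the widely expressed member that methylates Hsp70 chaperones, differed between genotypes by a small and even amount. It lay at 7.13, 7.19 and 7.33 (lowest, median, highest) in untreated wildtype, and at 7.17, 7.27 and 7.50 in overloaded wildtype muscle. Mstn-/- arrays lay at 7.47, 7.51 and 7.58 without overload and at 7.45, 7.68 and 7.73 with it. The untreated genotypes did not overlap, and the overloaded ones did. Among overloaded muscles the level was 1.25-fold higher in Mstn-/- mice (log2 0.32 ± 0.06, SE; limma adjusted p = 8.7e-05), and it was 1.25-fold higher without overload, a description. Overload itself gave log2 differences of 0.12 in both genotypes, which did not pass (limma adjusted p = 0.074 in wildtype and 0.070 in Mstn-/-). In both genotypes weighting of the arrays took this past the threshold (limma adjusted p = 0.046 and 0.040). In wildtype it also passed without untreated replicate 1 (adjusted p = 0.035) or overloaded replicate 6 (0.028), and in Mstn-/- muscle without overloaded replicate 4 (0.016).

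Smyd1, the muscle-restricted myofibril factor, had the smallest fall under overload in wildtype of the 3 tested members that passed there. It lay at 10.78, 10.99 and 11.11 (lowest, median, highest) in untreated wildtype and at 10.30, 10.69 and 10.88 in overloaded wildtype muscle, with overloaded replicate 3 lowest. Mstn-/- arrays lay between 10.80 and 11.14 (mean 10.99 ± 0.12, SD, n = 6) without overload, and at 10.58, 10.77 and 10.97 with it. All 4 ranges overlapped. Smyd1 fell 1.22-fold in wildtype (limma adjusted p = 0.0040) and 1.16-fold in Mstn-/- muscle (limma adjusted p = 0.0315). The call in Mstn-/- muscle was lost after another quantile normalization (adjusted p = 0.054) and without untreated Mstn-/- replicate 3, 4 or 6 or overloaded Mstn-/- replicate 2 or 4 (adjusted p = 0.077, 0.055, 0.063, 0.088 and 0.067). Between the overloaded genotypes the log2 difference was 0.09, with an interval of -0.08 to 0.27 (limma adjusted p = 0.41).

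Smyd2 fell further than Smyd1. It lay at 10.39, 10.58 and 10.74 (lowest, median, highest) in untreated wildtype, and at 9.09, 9.42 and 9.54 in overloaded wildtype muscle. The Mstn-/- arrays were at 10.45, 10.61 and 10.79 without overload and at 9.47, 9.86 and 10.10 with it. Untreated and overloaded arrays did not overlap in either genotype. Smyd2 fell 2.31-fold in wildtype (log2 -1.21 ± 0.09, SE; limma adjusted p = 1.1e-11) and 1.70-fold in Mstn-/- muscle (log2 -0.76 ± 0.09; limma adjusted p = 7.95e-08).

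The fall of Smyd2 was smaller in Mstn-/- muscle, by 0.44 ± 0.13 (log2, SE; limma adjusted p = 0.018). Overloaded Mstn-/- muscle was 1.41-fold higher than overloaded wildtype muscle (limma adjusted p = 1.3e-04), with ranges that overlapped. Without overload the genotypes lay close together, with a log2 difference of 0.05 and an interval of -0.14 to 0.24.

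Mss51 lay at 11.61, 12.13 and 12.53 (lowest, median, highest) in untreated wildtype and at 9.22, 9.58 and 9.64 in overloaded wildtype muscle. Among Mstn-/- mice it lay at 12.62, 12.71 and 12.78 without overload and at 10.50, 11.19 and 11.43 with it. No 2 of the 4 groups overlapped, and the order of means was overloaded wildtype, overloaded Mstn-/-, untreated wildtype and untreated Mstn-/-. The spread was uneven, with an SD of 0.38 over the untreated wildtype arrays and 0.06 over the untreated Mstn-/- arrays (n = 6 each). As a description, Mss51 was 5.83-fold lower under overload in wildtype and 3.14-fold lower in Mstn-/- muscle. The difference between these responses was 0.89 ± 0.21 (log2, SE; limma adjusted p = 0.0048). That difference contains the falls for which Mss51 was already known, so its p-value is no independent test. Overloaded Mstn-/- muscle was 2.89-fold higher than overloaded wildtype muscle (log2 1.53 ± 0.15, limma adjusted p = 3.3e-08), rank 6 among rises. This comparison shares the overloaded wildtype arrays with the fall already known, so its p-value is no independent test either.

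Inmt, the small-molecule methyltransferase, lay at 8.87, 9.07 and 9.36 (lowest, median, highest) in untreated wildtype and at 6.27, 6.59 and 6.85 in overloaded wildtype muscle. Among Mstn-/- mice the arrays lay at 9.42, 9.88 and 10.22 without overload and at 6.75, 7.38 and 7.93 with it. The untreated groups stood apart from each other and from both overloaded groups. Of the overloaded wildtype arrays, 3 of 6 were above the filter level, so folds against that group are of uncertain size. As a description, Inmt was 5.66-fold lower under overload in wildtype and 5.73-fold lower in Mstn-/- muscle. Unlike in Mss51, no difference between these responses was found (log2 -0.02, interval -0.46 to 0.43, limma adjusted p = 0.97). Here too the difference contains falls that were already known. Among overloaded muscles Inmt was 1.71-fold higher in Mstn-/- mice (log2 0.77 ± 0.15, SE, limma adjusted p = 2.9e-04), with overlapping ranges. That comparison also uses the overloaded wildtype arrays of the known fall, so its p-value is no independent test.

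**Figure D2:**
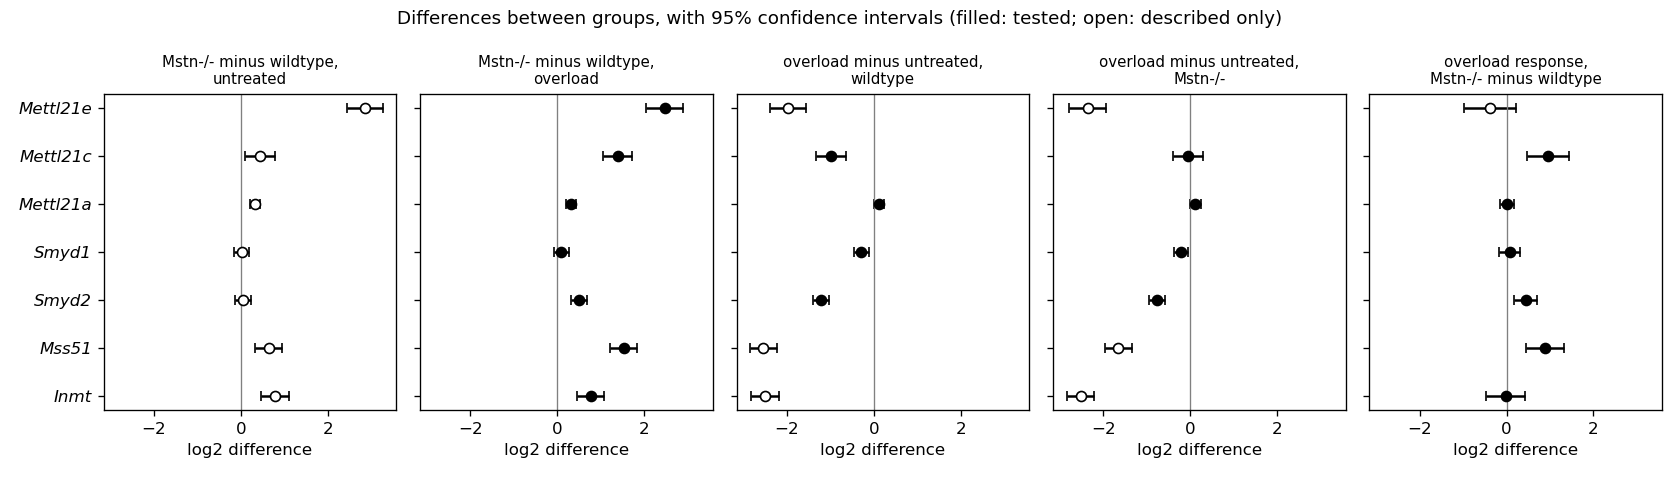
Log2 differences of the 7 genes (horizontal axis) in the 5 comparisons, with 95% confidence intervals from the fit to 24 arrays. Filled points were tested and open points are described only. All 7 points lie to the right of 0 in both comparisons of Mstn-/- with wildtype muscle, and the intervals of Smyd1 reach 0 in both and that of Smyd2 in untreated muscle.

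Counted together, 6 of the 7 genes were higher in overloaded Mstn-/- than in overloaded wildtype muscle by limma, Smyd1 being the exception, and 0 were lower. Of all tested genes 36.5% passed in this comparison, 17.5% as higher and 19% as lower. For Mss51 and Inmt it shares the overloaded wildtype arrays with the falls already known. Their part in the count of 6 is therefore no independent test. The groups did not overlap for 3 of the 7 (Mettl21e, Mettl21c and Mss51), against 15.5% of all genes (7.06% higher and 8.46% lower). The median difference of the 7 was 0.77 and that of all genes -0.03. Under overload in wildtype 3 of 4 tested genes fell (Mettl21c, Smyd1 and Smyd2), where 65.9% of all genes passed, 30.3% as higher and 35.6% as lower. The groups did not overlap for 4 of the 7, all lower, against 43% of all genes (21.8% higher and 21.1% lower). With overload in Mstn-/- mice 2 of 4 fell (Smyd1 and Smyd2), where 60.6% passed, 27.1% as higher and 33.5% as lower. Here too 4 of the 7 did not overlap, all lower, against 39.9% of all genes (19.8% higher and 20.1% lower). These shares of members stand on a high background. For the difference between responses 3 of 6 passed (Mettl21c, Smyd2 and Mss51), all as less lowered in Mstn-/- muscle, against 17.4% of all genes, 8.92% in that direction and 8.44% in the other. For Mss51 and Inmt that difference contains the falls already known, so their part in this count is no independent test. In untreated muscle, where the set was chosen, all 7 values were higher in Mstn-/- mice and 5 of 7 did not overlap. Of all genes 12% did not overlap (6.53% higher and 5.47% lower), and 21.3% passed the test (11.1% higher and 10.2% lower). The comparisons share arrays. Overload in wildtype and the untreated genotype comparison share the untreated wildtype arrays. Overload in Mstn-/- muscle uses the untreated Mstn-/- arrays of that genotype comparison. The comparison of overloaded genotypes uses the overloaded arrays of both overload comparisons.

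In whole muscle, fewer cells of a type and less RNA per cell cannot be told apart, and other cell types moved with the groups. The summed level of 8 fibroblast and fibro-adipogenic progenitor markers was 13.69 to 14.05 (log2) in untreated and 14.82 to 15.07 in overloaded wildtype muscle, and 13.81 to 14.12 and 14.43 to 14.71 in Mstn-/- muscle. By limma 8 of 8 of these markers rose in wildtype and 7 of 8 in Mstn-/- muscle. The summed level of 8 macrophage markers went from 10.96 to 11.40 up to 13.33 to 13.86 in wildtype, and from 11.57 to 11.92 up to 12.79 to 13.68 in Mstn-/- muscle, and 8 of 8 rose in each. The summed level of 6 muscle fibre markers was 16.20 to 16.24 in untreated and 16.02 to 16.21 in overloaded wildtype muscle, and 16.13 to 16.20 and 16.08 to 16.18 in Mstn-/- muscle. Their median log2 difference under overload was -0.06 in wildtype, where 1 rose and 3 fell, and -0.11 in Mstn-/- muscle, where 1 rose and 4 fell. Of all tested genes 30.3% rose and 35.6% fell under overload in wildtype, and 27.1% and 33.5% in Mstn-/- muscle. All markers of these 3 lists were above the filter level in every group. The part of other cell types in the falls was not tested.

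Fibre-type markers differed between the groups as well. The summed level of 9 slow-fibre markers was 13.11 to 13.77 in untreated and 13.90 to 14.49 in overloaded wildtype muscle, against 11.68 to 12.07 and 12.85 to 13.11 in Mstn-/- muscle. Among overloaded muscles 9 of 9 slow-fibre markers were lower in Mstn-/- mice, with slow myosin Myh7 6.23-fold lower, while Mettl21c, which has been placed in slow fibres, was 2.62-fold higher there. Of 12 fast-fibre markers 8 were higher and 1 was lower in that comparison, with the calcium buffer Pvalb 1.99-fold higher. Of all tested genes 17.5% were higher and 19% lower there. Under overload in wildtype 7 of the 12 fast-fibre markers fell, 0 rose and 5 did not pass, where 35.6% of all genes fell. In Mstn-/- muscle 6 fell and 2 rose, against 33.5% and 27.1% of all genes. The largest fall in wildtype was that of the fast myosin Myh4, 2.12-fold. Its response differed between genotypes by 0.82 (log2, limma adjusted p = 2.6e-04). The other fast myosins, Myh1 and Myh2, did not pass in wildtype and rose in Mstn-/- muscle, by 0.30 and 0.23. The part of fibre type in the levels of the 7 genes was not tested.

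Under overload in wildtype no called gene of the 7 lists of relatives and partners fell as far as Mss51, Inmt or Mettl21e. Mettl22, Adk, Cth and Gamt moved further than Mettl21c, Smyd1 and Mettl21a. Mettl22 (log2 -1.22) and Gamt (1.32) also moved further than Smyd2 (-1.21). Of 17 other methyltransferases of the METTL21 fold (the seven-beta-strand class), 13 were tested, and under overload in wildtype 9 fell and 3 rose. Mettl22 fell most, 2.33-fold, and Eef1akmt3, a lysine methyltransferase of the translation factor eEF1A, rose 1.61-fold. Mstn-/- muscle had 6 lower and 2 higher. Among overloaded muscles 3 were higher and 2 lower in Mstn-/- mice, Etfbkmt, which methylates the electron transfer flavoprotein, with a log2 difference of 0.58 and Eef1akmt3 with -0.53. Of 28 tested SET-domain genes, 9 rose and 10 fell under overload in wildtype, with Nsd2 up 1.49-fold and Setd7 down 1.72-fold, and 7 rose and 14 fell in Mstn-/- muscle. Among overloaded muscles 5 were higher and 5 lower in Mstn-/- mice. Of all tested genes 30.3% rose and 35.6% fell under overload in wildtype, and 27.1% and 33.5% in Mstn-/- muscle. Between the overloaded genotypes 17.5% of all genes were higher and 19% lower in Mstn-/- mice.

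Of 8 tested arginine methyltransferases 4 fell and 2 rose in each genotype under overload, with Prmt7 1.63-fold lower and Prmt2 1.39-fold higher in wildtype. Among overloaded muscles 3 were higher in Mstn-/- mice and 0 were lower. Of 10 tested small-molecule methyltransferases 5 fell and 3 rose in wildtype, and 6 fell and 2 rose in Mstn-/- muscle. Gamt, which makes creatine, rose 2.50-fold in wildtype and 2.12-fold in Mstn-/- muscle, opposite in sign to Inmt. Hnmt, which inactivates histamine, fell 1.78-fold in wildtype, and the largest fall in Mstn-/- muscle was that of Mettl7a1, 1.30-fold. Among overloaded muscles 5 were higher and 1 lower in Mstn-/- mice. The shares of all tested genes were 30.3% higher and 35.6% lower for overload in wildtype, and 27.1% and 33.5% in Mstn-/- muscle. They were 17.5% and 19% between the overloaded genotypes.

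Of the methionine and SAM cycle, which supplies the methyl donor, 8 of 12 tested genes fell under overload in wildtype, 3 did not pass and 1 rose, where 35.6% of all genes fell. Adenosine kinase Adk fell most, 2.18-fold, and the gene that rose was the SAH hydrolase relative Ahcyl1, 1.20-fold. Of the same genes 7 fell, 4 did not pass and 1 rose in Mstn-/- muscle, where 33.5% of all genes fell, the cystathionine lyase Cth falling 2.17-fold. The response of Adk differed between genotypes by 0.69 (log2; limma adjusted p = 1.1e-05). Among overloaded muscles 6 of the 12 were higher in Mstn-/- mice and 0 were lower, against 17.5% and 19% of all genes. The median of the list in wildtype under overload was -0.33, against -0.06 for all genes.

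Known partners and substrates moved both ways. Of 9 tested genes 3 rose and 2 fell under overload in each genotype. Of all genes 30.3% rose and 35.6% fell in wildtype, and 27.1% and 33.5% in Mstn-/- muscle. Hsp90aa1, a chaperone that SMYD2 methylates, rose 1.44-fold in wildtype while Smyd2 fell. Hspa1l fell 1.81-fold in each genotype. Unc45b, a chaperone for myosin folding, was 1.29-fold higher in overloaded Mstn-/- than in overloaded wildtype muscle, and its response differed by 0.33 (log2; limma adjusted p = 0.0485). Vcp, the segregase ATPase methylated by another METTL21 relative, was 1.23-fold higher there (limma adjusted p = 1.9e-04), and among these genes 3 were higher and 3 lower. Of all tested genes 17.5% were higher and 19% lower in that comparison.

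Genes for the assembly of cytochrome c oxidase, the complex behind the name of Mss51, were counted as a further list. Under overload in wildtype 15 of 18 tested genes fell and 0 rose, against 35.6% of all genes that fell, with Cmc2 down 1.92-fold and a median of -0.38. Cox15, Cox19 and Sco1 did not pass. Of the same 18 genes, 8 fell, 9 did not pass and 1 rose in Mstn-/- muscle, where 33.5% of all genes fell, with a median of -0.18. The gene that rose was Cox15, by 0.20 (log2; limma adjusted p = 0.0355). Among overloaded muscles 11 of 18 were higher in Mstn-/- mice and 0 were lower, against 17.5% and 19% of all genes, with Coa7 1.37-fold higher. The response differed for 7 of 18, all in the direction of a less negative or more positive change in Mstn-/- muscle. The largest such difference was that of Cox14, 0.57 (log2), whose change in Mstn-/- muscle did not pass (0.07, limma adjusted p = 0.40). Of all genes 17.4% differed in response, 8.92% in that direction. The genes of these lists were chosen by function, and lists and members were all set with earlier results of these data known.

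**Figure D3:**
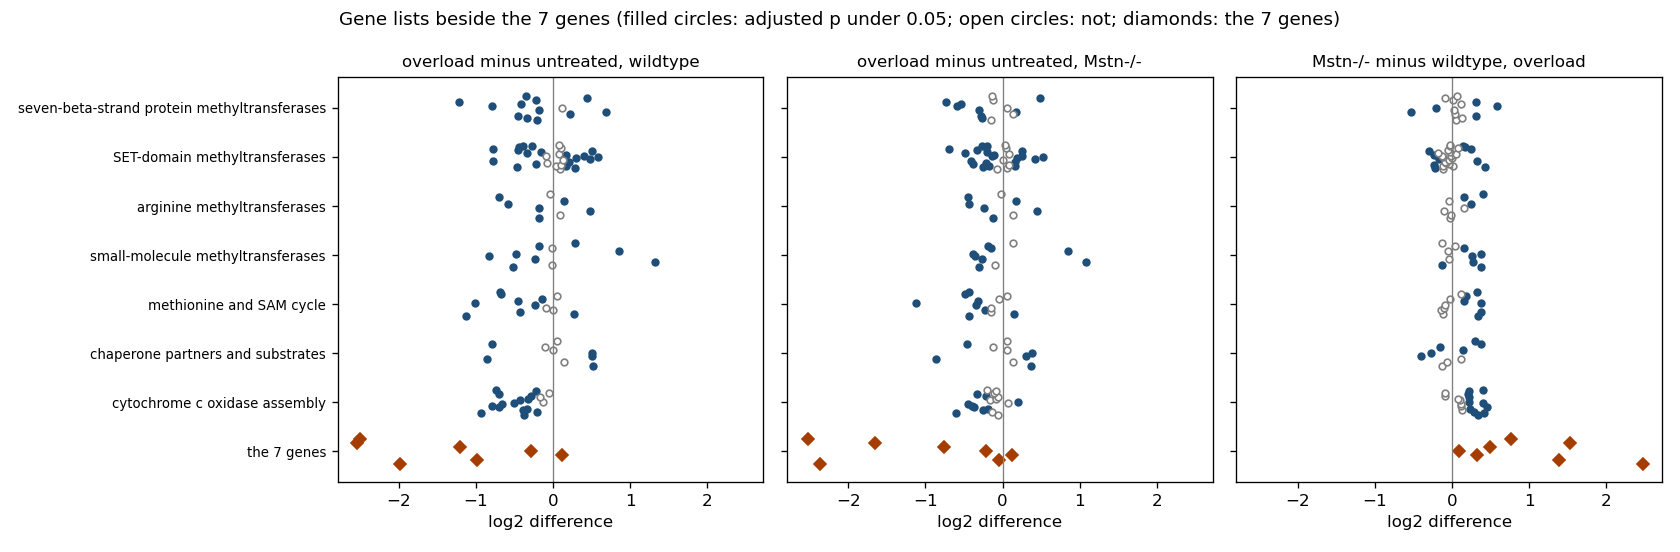
Log2 differences (horizontal axis) of the tested genes of 7 lists in 3 comparisons. Each circle is a gene (filled where limma's adjusted p is under 0.05), and diamonds are the 7 genes described here. Under overload in wildtype 15 of 18 cytochrome c oxidase assembly genes lie on the lower side as filled circles, and Mss51, Inmt and Mettl21e lie beyond every gene of the lists.

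Correlations between members are descriptions over few arrays that share their groups. Over all 24 arrays, where differences between groups enter, Pearson r was 0.96 for Smyd2 and Mss51, 0.92 for Smyd2 and Inmt, and 0.90 for Mss51 and Inmt. For Mettl21e it was 0.86 with Mss51 and 0.76 with Mettl21c. With group means taken away these 5 values were 0.69, -0.01, -0.49, 0.23 and -0.06. Within groups of 6 arrays, Mss51 and Smyd2 varied together in untreated wildtype (Pearson r = 0.85) and overloaded wildtype muscle (r = 0.91). In overloaded Mstn-/- muscle r was 0.77, but the rank correlation (Spearman) was only 0.49. By ranks the wildtype values were 0.83 and 0.89. They varied against each other in untreated Mstn-/- muscle (r = -0.54), where Mss51 spans a narrow range. Inmt and Mss51 both fell under overload, yet within overloaded Mstn-/- muscle the arrays with more Mss51 had less Inmt (r = -0.88, n = 6), as in untreated Mstn-/- muscle (r = -0.74). In the wildtype groups that value was -0.23 and 0.39. Mettl21e and Mettl21c had r = 0.57 and 0.22 in untreated and overloaded wildtype and -0.01 and -0.36 in Mstn-/- muscle.

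**Figure D4:**
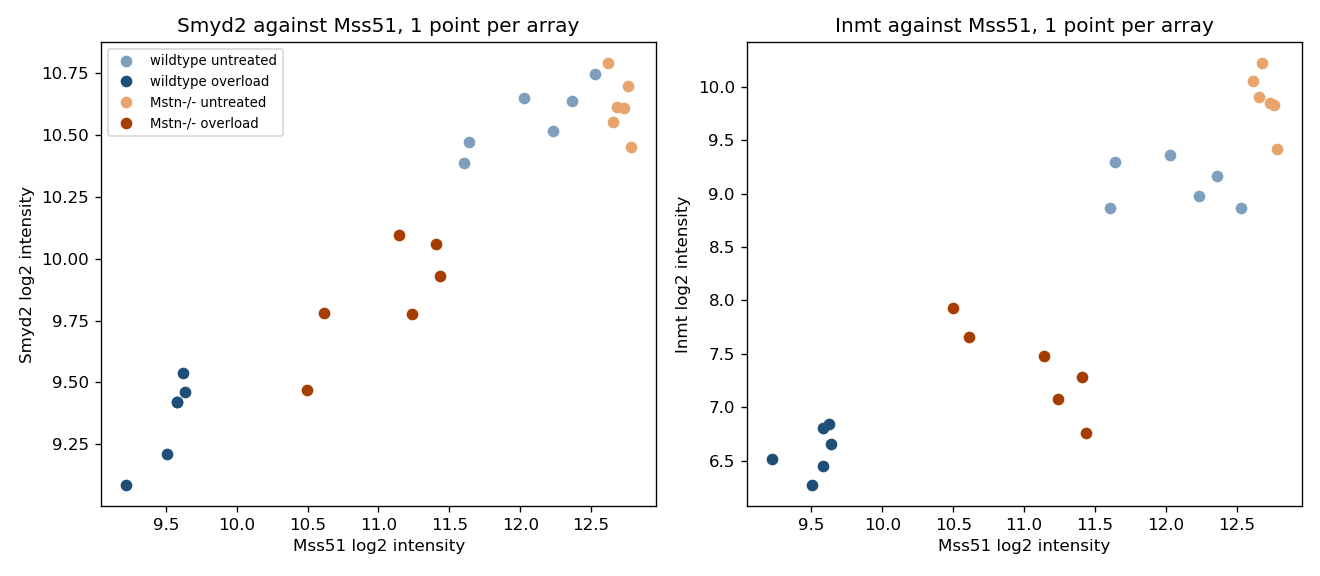
Log2 intensity of Smyd2 (left) and Inmt (right) on the vertical axis against that of Mss51 on the horizontal axis, 1 point per array, coloured by group. Within overloaded Mstn-/- muscle Smyd2 rises with Mss51 (Pearson r = 0.77, rank correlation 0.49) and Inmt falls with it (r = -0.88, rank correlation -0.94), over 6 arrays each.

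The genes most like a member over all 24 arrays, by Pearson r of log2 intensity, were Glul (0.96), Tbx1 (0.96) and Yars (0.96) for Mettl21e, and Eci2 (0.94), Ndufb6 (0.93) and Mrpl15 (0.93) for Mettl21c. For Mss51 they were Farsb (0.98), Tmem185a (0.97) and Atp8a1 (0.97), and for Inmt they were Sun2 (0.98), Rilpl1 (0.97) and Klf15 (0.97). With group means taken away, the nearest were Abcb1b for Mettl21e (0.75), Tnpo3 for Mettl21c (0.80), Xpr1 for Mss51 (0.75) and N4bp3 for Inmt (0.73). The nearest genes changed with that step for all 4 members. Glul, glutamine synthetase, was itself higher in overloaded Mstn-/- than overloaded wildtype muscle by 0.90 (log2). This is a description, because Glul was picked for following Mettl21e over these same arrays.

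The nearest 2 protein-coding genes on each side of a member, by order in the RefSeq table, are given next. For Mettl21e, the log2 difference between overloaded genotypes was 0.23 for Ercc5 (limma adjusted p = 0.0059) and -0.01 for Bivm (0.95) on one side, and -0.28 for Gulp1 (0.17) and -0.73 for Col3a1 (1.5e-05) on the other. For Mettl21c, that difference was 0.10 for Tpp2 (limma adjusted p = 0.32), -0.12 for Uxs1 (0.073) and 0.40 for Tex30 (2.4e-04). Tex30 was also higher without overload, by 0.43, while overload gave it -0.02 and -0.05.

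Beside Mss51, the calcineurin subunit Ppp3cb fell under overload by 0.91 in wildtype (limma adjusted p = 4.0e-12) and by 0.73 in Mstn-/- muscle (6.1e-10). Its next neighbour Usp54 had 0.01 (limma adjusted p = 0.92) and 0.23 (0.017), and Anxa7, on the other side, had 0.18 (0.0028) and -0.09 (0.13). Beside Inmt, the urocortin receptor Crhr2 fell by 0.72 in wildtype (limma adjusted p = 2.4e-07) and by 0.66 in Mstn-/- muscle (1.5e-06), and Gars had 0.04 (0.505) and -0.06 (0.295). On the other side Mindy4 had 0.19 (limma adjusted p = 0.0011) and 0.02 (0.78), and the water channel Aqp1 had -0.14 (0.044) and -0.00 (0.99).

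Beside Smyd2, which fell, overload in wildtype gave 0.58 for Prox1 (limma adjusted p = 9.3e-07) and 0.51 for Cenpf (8.7e-06), while Ptpn14 had -0.06 (0.21) and Rps6kc1 -0.07 (0.21). Beside Smyd1, it gave 0.37 for Krcc1 (limma adjusted p = 2.4e-04), -0.09 for Thnsl2 (0.18) and -0.07 for Gm1070 (0.38). Beside Mettl21a, the log2 difference between overloaded genotypes was -0.18 for Klf7 (limma adjusted p = 0.021), -0.03 for Creb1 (0.77), 0.24 for Ccnyl1 (0.0455) and -0.14 for Fzd5 (0.074). The neighbours Gm8251, Fabp1 and Cfap70 were not tested.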

How the data were processed

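Plantaris RNA of 24 mice was hybridised to Affymetrix whole-transcript arrays. The deposited intensities per probe set were made with RMA, version not named, per the submitters' processing notes. They run from 4.72 to 25588.9, a linear scale, so log2 was taken, where the plan had assumed log2 values. Of 34760 probe sets, 21640 with 1 gene symbol were used, and 21553 of these were found in RefSeq's gene table (GRCm38.p6). The array's own build is not named. Per gene the probe set with the highest mean was kept. A gene was tested if a group mean was above the 30th percentile of probe-set means (log2 6.63, intensity 98.9). limma 3.58.1 in R 4.3.3 fitted 1 mean per group to all 24 arrays (20 residual degrees of freedom), with Benjamini-Hochberg adjustment over 14499 genes per comparison and a threshold of 0.05. The fit was tested on simulated data. Precision is limited by how many arrays there are; the median SE of a difference was 0.067 (log2).

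Members and lists were chosen with earlier results of these data known. Named genes are the members, per list the largest called rise and fall, other list members by role, the genes nearest a member in pattern (3 by all arrays, 1 without group means) and 2 chromosomal neighbours on each side. Alternatives were other normalizations, filters, probe-set means, variance models, a replicate block, array weights, subsets of groups and leaving out each array. 1 normalization was added after the data were seen.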

Additional observations from a re-analysis of the deposited data

Results flagged for a closer look

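Of 28 sets of 6 arrays (7 genes in 4 groups), 3 had an array far from the rest, and chance gives about 1 in 20. Mettl21e was highest on overloaded wildtype replicate 2 (5.54, the next at 5.19), below the filter level. Mettl21a was highest on untreated wildtype replicate 1 (7.33, the next at 7.20). Mss51 was lowest on overloaded wildtype replicate 5 (9.22, the next at 9.51). The overload response differed between genotypes, by the test of that difference in limma, for Mettl21c (0.94 on the log2 scale), Mss51 (0.89) and Smyd2 (0.44). Each of the 3 was less lowered by overload in Mstn-/- muscle. For Mss51 the difference contains the falls already known, so its test is not independent of them.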

How the results depend on the processing

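Of the values of single members under an alternative, 1142 stayed the same, 30 changed sign, 5 passed the threshold newly and 6 no longer passed it. For tested values, staying the same meant keeping direction and side of the threshold. For values only described, no threshold applied, and it meant keeping direction with a shift smaller than the SD within groups. For the counts of members called, 6 of 7 were higher in overloaded Mstn-/- muscle and 3 of 6 differed in response under every alternative run. With each array left out in turn the count was 3 to 4 of 4 for overload in wildtype, and 1 to 2 of 4 in Mstn-/- muscle, where another quantile normalization gave 1. Values that changed sign were all close to 0 and not called: after quantile normalization Smyd1 between untreated genotypes (-0.014) and the response differences of Mettl21a (-0.017) and Inmt (0.00709), and with array weights that of Mettl21a (-0.00697). With arrays left out in turn the range was -0.020 to 0.056 for Smyd1 between untreated genotypes, -0.11 to 0.024 for Mettl21c under overload in Mstn-/- muscle, and -0.026 to 0.043, -0.0013 to 0.11 and -0.13 to 0.10 for the response differences of Mettl21a, Smyd1 and Inmt. Shifting arrays to the same median of the tested genes, chosen after seeing the data, left 3614 genes higher and 7091 lower under overload in wildtype, against 4396 and 5164 as deposited, and 3188 and 7147 against 3932 and 4857 in Mstn-/- muscle; it changed no member's call. Replicate numbers are shared between groups. Of 36 same-numbered pairs of arrays 9 had a correlation of deviations over 0.1, with values from -0.41 to 0.36. Arrays with different numbers were not correlated, so these values cannot decide whether the numbers pair the arrays. The main fit took the arrays as unpaired. With the replicate block the counts were 3, 2, 6 and 3, as without it.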

Other observations

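In the RefSeq table Mettl21e, Mettl21c, Mettl21a and Smyd2 lie on the same chromosome as Mstn, the gene knocked out in the Mstn-/- mice, and Mettl21e lies between Mettl21c and Mstn. Of the other 26 protein-coding genes between Mettl21c and Mstn, a set chosen after values were seen, 19 were tested. Without overload 5 of 19 (26.3%) differed between genotypes, 3 higher and 2 lower in Mstn-/- muscle, against 21.3% of all genes. Slc40a1, the iron exporter, had the largest log2 difference among them, 0.69, but under overload it was lower in Mstn-/- muscle (-0.38, limma adjusted p = 0.0385). Under overload 9 of 19 (47.4%) differed, 4 higher and 5 lower, against 36.5% of all genes. Of these genes Tex30 was higher in Mstn-/- muscle in both conditions, by 0.43 and 0.40. The part of chromosomal position in the level of Mettl21e was not tested.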
